A study of Mus musculus with 24 samples.

Results

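The genes described here are the 37 genes that the mouse mitochondrial DNA encodes, which were the rows of the deposited unfiltered gene counts whose locus lies on the chromosome named MT. They are 13 mRNA genes, 2 rRNA genes and 22 tRNA genes of 46078 genes in all. The RNA came from the apex of the ventricles of male C57BL/6 mice aged 10 weeks, at day 5, and was sequenced as single-end libraries of polyadenylated RNA that do not mark strand. There were 24 libraries in 4 groups of 6. WT/PBS mice received no diphtheria toxin and the vehicle PBS. WT/PYR mice received no toxin and pyridostigmine, a cholinesterase inhibitor. DTR/PBS and DTR/PYR mice had a heart injury mediated by diphtheria toxin and received PBS or pyridostigmine. The labels name neither the cells in which DTR is expressed nor a toxin-treated WT group, so genotype and toxin cannot be told apart, and "injury" below means both together. Each library carried its own animal tag and was treated as 1 animal.

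Mitochondrial DNA encodes subunits of respiratory complexes I, III, IV and V, and the rRNAs and tRNAs needed to translate them inside the organelle. Both strands are transcribed into long RNAs, which are cut mainly at the tRNAs that punctuate the genome, and most of the released mRNAs then receive poly(A) tails. The heart is rich in mitochondria, and the other subunits of these complexes come from nuclear genes. Mature tRNAs end in CCA and not in poly(A), so in libraries selected with oligo(dT) the reads on a tRNA gene are not a measure of mature tRNA, and reads of mature tRNAs and of longer RNAs that contain them cannot be told apart here.

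Libraries held 1877914 to 37842245 counted reads. Cardiomyocyte genes such as Myh6 were present in every library, and none of the 14 cardiomyocyte markers was at 0 anywhere. Nppb, the natriuretic peptide gene that rises in stressed ventricle, lay between 141 and 380 counts-per-million (CPM) in the 12 WT libraries and between 2181 and 3426 CPM in the 6 DTR/PBS libraries. In DTR/PYR it was 2763 to 3185 CPM in libraries 1, 2 and 3, but 332, 413 and 640 CPM in libraries 4, 5 and 6, which therefore stood apart from the others labelled as injured. Results for DTR/PYR are given with and without these 3 libraries.

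Several of these genes also exist as nuclear copies, and this governs what their counts can mean. A block of pseudogenes on chromosome 1 of GRCm38, between 24611535 and 24616197 on the minus strand, repeats the stretch of mitochondrial DNA from within mt-Co1 to within mt-Nd4. The pseudogene Gm28661 matched 681 of the 684 bases of mt-Co2 at 100% identity. Gm10925 matched mt-Atp6 at 100%, Gm28437 matched mt-Co3 at 100%, Gm10222 matched mt-Nd4l at 100% and Gm28438 matched mt-Nd3 at 99.7%. An older copy of mt-Co2 on chromosome 2, Gm13341, matched it at 95.9%. The first 60 bases of mt-Co2 (MT, 7013 to 7696, plus strand) and of these copies are shown because a read from this stretch cannot be placed by sequence between mt-Co2 and Gm28661. They are GENCODE vM21 transcripts of GRCm38, 5′ to 3′, and capitals mark the 2 differences of Gm13341 from mt-Co2.
mt-Co2: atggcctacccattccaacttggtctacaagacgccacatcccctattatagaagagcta
Gm28661: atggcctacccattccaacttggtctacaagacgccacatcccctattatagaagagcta
Gm13341: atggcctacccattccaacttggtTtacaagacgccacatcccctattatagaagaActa

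Each member was cut into all its windows of 50 bases, and windows with an identical copy in an annotated transcript of a nuclear gene were counted. Such copies covered 98.0% of the windows of mt-Nd3, 98.8% of mt-Nd4l, 99.5% of mt-Atp6, 99.9% of mt-Co3 and 100% of mt-Co2. These 5 mRNA genes together had 11161 reads over the 24 libraries, 0.0275% of all reads on mitochondrial genes, and their mean levels ran from 0.225 CPM per kilobase of gene for mt-Nd4l to 50 for mt-Nd3. The other 8 mRNA genes had 27400217 reads, and their levels ran from 3852 CPM per kilobase for mt-Nd6 to 13519 for mt-Co1. Partial copying did not go with low counts in the same way, since mt-Co1 with 51.1% and mt-Nd4 with 62.2% of windows copied stood at 13519 and 7465 CPM per kilobase. The copies had few reads too: Gm28661 had 177 over all libraries, Gm10925 219, Gm28437 1019, Gm28438 27, Gm10222 35 and the older copy Gm13341 1035. mt-Co2 itself had 293, mt-Co3 700 and mt-Nd4l 23, so that Gm13341, Gm28437 and Gm10222 each had more reads than the gene they copy. The sources used here do not say how reads that match 2 places were handled, and its part in these counts was not tested. The tRNA genes between these mRNA genes had 8.91 (mt-Td), 1.35 (mt-Tk), 77.5 (mt-Tg) and 8.83 (mt-Tr) CPM per kilobase, while mt-Ts1, at the edge of mt-Co1, had 2334. mt-Atp8, which also lies in the stretch repeated on chromosome 1, stood at 4954 CPM per kilobase with 0% of windows copied. Copies outside annotated transcripts, where tRNA copies and any copy of mt-Atp8 would lie, were not counted. The counts of mt-Co2, mt-Co3, mt-Atp6, mt-Nd3 and mt-Nd4l are therefore uncertain as levels of these mRNAs.

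**Figure D1:**
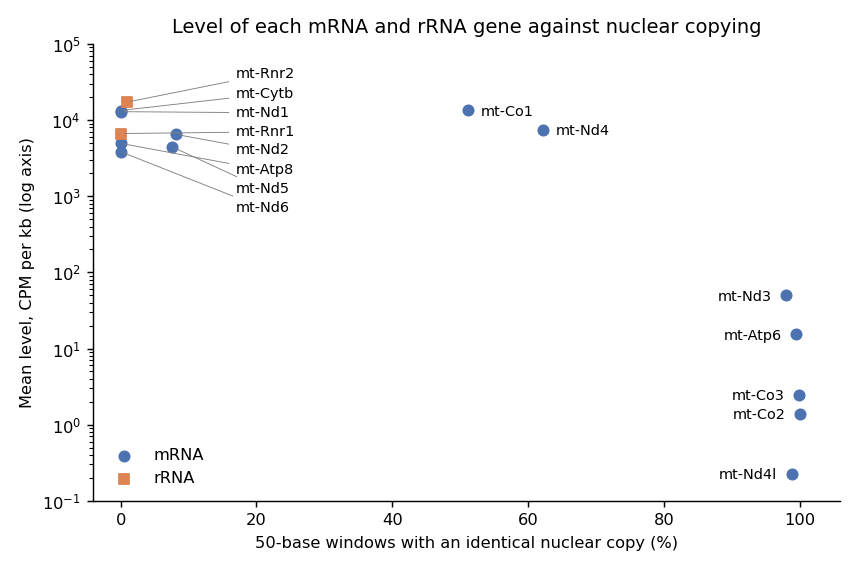
Each point is 1 mRNA gene (circle) or rRNA gene (square). The x axis gives the percent of its 50-base windows with an identical copy in an annotated nuclear transcript. The y axis gives its mean level over 24 libraries in CPM per kilobase on a log axis. Copies outside annotated transcripts, as any of mt-Atp8 would be, were not counted. The 5 genes with 98.0% to 100% of windows copied lie at 50 CPM per kilobase or below, and the other 10 genes lie at 3852 or above.

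Neighbouring members also share bases. mt-Atp8 and mt-Atp6, which encode 2 subunits of ATP synthase, overlap by 43 bases at MT 7927 to 7969, the longest of 9 overlaps, and these libraries do not mark the strand that separates mt-Nd5 from mt-Nd6, which overlap by 14 bases. The shared stretch is shown because a read within it lies in both genes, with the start codon of mt-Atp6 in capitals. The sources used here do not say to which gene, if any, such reads were counted.
mt-Atp8/mt-Atp6: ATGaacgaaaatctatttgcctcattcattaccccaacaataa

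The tRNA genes had 0.583% of the mitochondrial reads. The 4 with the most reads are shown because the tRNA results below turn on them, from the same GENCODE transcripts in DNA letters with the anticodon in capitals. mt-Ts1 (serine, MT 6870 to 6938, minus strand) had 77142 reads, mt-Te (glutamate, MT 14071 to 14139, minus strand) 52040, mt-Tm (methionine, MT 3845 to 3913, plus strand) 47079 and mt-Tl1 (leucine, MT 2676 to 2750, plus strand) 11743.
mt-Ts1: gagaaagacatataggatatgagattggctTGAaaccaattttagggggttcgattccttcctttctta
mt-Te: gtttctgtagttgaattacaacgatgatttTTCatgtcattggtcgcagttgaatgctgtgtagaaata
mt-Tm: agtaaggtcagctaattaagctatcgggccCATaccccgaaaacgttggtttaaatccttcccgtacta
mt-Tl1: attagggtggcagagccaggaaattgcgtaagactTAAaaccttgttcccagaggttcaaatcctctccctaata

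Mitochondrial genes took 13.2% of all counted reads, or 40517221 reads over the 24 libraries. Per library they took 6.01% to 25.6% of the reads in WT/PBS (mean 14.4% ± 6.87, SD, n = 6), 9.08% to 12.6% in WT/PYR (10.6% ± 1.5), 5.41% to 9.97% in DTR/PBS (7.13% ± 1.60) and 4.59% to 17.9% in DTR/PYR (10.2% ± 5.56). The DTR/PYR group was divided: libraries 1, 2 and 3 had 6.03%, 4.59% and 5.61%, and libraries 4, 5 and 6, those with low Nppb, had 14.6%, 17.9% and 12.7%. WT/PBS spread most of the 4 groups, from library 4 at 6.01%, inside the DTR/PBS range, to library 6 at 25.6%. The 95% Wilson interval of each share was at most 0.0348 percentage points to either side, which covers counting error only. The spread between libraries is far larger than counting error. No test was made on these sums. In each of the 4 groups the library with the most counted reads also had the highest share. Within groups the order did not hold throughout: WT/PBS library 4, with 14589990 reads, had 6.01%, and library 5, with 5501200, had 16.7%. DTR/PYR libraries 1, 2 and 3 had 2387030 to 5969640 counted reads, and libraries 4, 5 and 6 had 6492740 to 37842245. The part of library depth in these shares, and in the DTR/PYR split, was not tested.

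**Figure D2:**
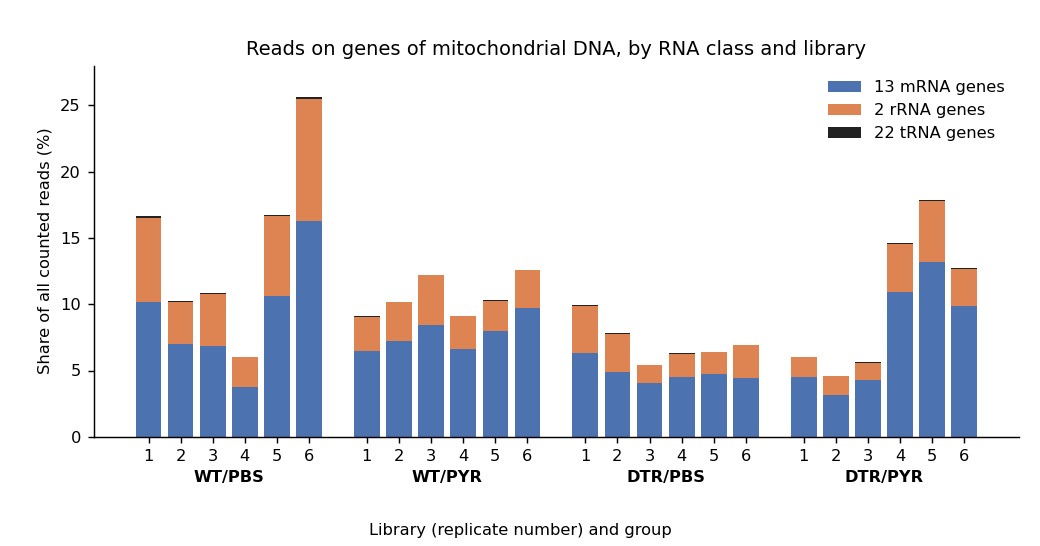
Stacked bars give the percent of counted reads on the 13 mRNA, 2 rRNA and 22 tRNA genes of mitochondrial DNA in each of 24 libraries, by replicate number and group. DTR/PBS bars end between 5.41% and 9.97%, and DTR/PYR libraries 4, 5 and 6 end between 12.7% and 17.9%.

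The mRNA genes held 67.7% of the mitochondrial reads and the rRNA genes 31.8%. Over the 24 libraries the mRNA part ran from 60.9% to 77.8%, the rRNA part from 21.9% to 38.2% and the tRNA part from 0.184% to 1.21%. The rRNA part was 30.8% to 38.2% in WT/PBS (35.7% ± 2.55, SD, n = 6), 22.2% to 30.9% in WT/PYR (26.7% ± 3.63), 24% to 36.1% in DTR/PBS (30.6% ± 5.51) and 21.9% to 31.1% in DTR/PYR (25.4% ± 3.09). In DTR/PBS, libraries 1, 2 and 6 had 35.1% to 36.1% and libraries 3, 4 and 5 had 24% to 28.2%. The WT/PYR range met that of WT/PBS only through WT/PBS library 2 at 30.8%.

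Levels between groups were compared with edgeR over the 15456 genes above 0.5 CPM in at least 6 libraries, with p-values adjusted over all of them and a gene called at an adjusted p under 0.05. Of the 37 members 33 were tested. mt-Nd4l, mt-Tf, mt-Tk and mt-Ts2 had 23 to 126 reads over all libraries and were not.

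Injury under PBS lowered most of the tested mitochondrial genes. Comparing DTR/PBS with WT/PBS, 22 of 33 were called lower and none higher, against 21.6% of all genes called lower, 21.3% called higher and 42.9% called either way. Both rRNA genes, 12 of 12 tested mRNA genes and 8 of 19 tested tRNA genes were called. The median log2 fold change was -1.47 over the 33 members and 0.01 over all genes tested. The groups overlapped for nearly every member: 2 of 33, mt-Co2 and mt-Nd3, had every DTR/PBS library below every WT/PBS library, against 11% of all genes, and none had every library above, against 11.2%. For mt-Co2 this rests on few reads, 0 to 21 per library in DTR/PBS and 5 to 43 in WT/PBS. The 0 of DTR/PBS library 4 allows up to 1.33 CPM, above the lowest WT/PBS value of 0.855 CPM, so the mt-Co2 separation is not resolved. An unadjusted p under 0.05 was found for 23 members and for 49.9% of all genes.

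The tag of each animal ends in a letter, U or V, that the labels do not explain. Within tag letter V, with 4 DTR/PBS libraries against 2 WT/PBS libraries, 21 of 30 tested members were called lower. In that fit 7.58% of all genes were called lower and 9.72% higher. The WT/PBS libraries of V were 3 and 6, with mitochondrial shares of 10.9% and 25.6%, the latter the highest of all. WT/PBS library 4, the lowest of its group at 6.01%, has tag letter U. Within U, with 2 DTR/PBS libraries against 4 WT/PBS libraries, 4 of 29 were called lower (mt-Rnr1, mt-Rnr2, mt-Nd1 and mt-Nd3), against 20.5% of all genes called lower and 40.1% called either way, so the members were called no more often than other genes there.

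The rRNA genes encode the RNAs of the small (mt-Rnr1, MT 70 to 1024) and large (mt-Rnr2, MT 1094 to 2675) subunits of the mitochondrial ribosome. mt-Rnr2 was the highest of the mRNA and rRNA genes per length, at 17273 CPM per kilobase, and mt-Rnr1 stood at 6667. The level of mt-Rnr2 was 19153, 45783 and 94104 CPM (lowest, median, highest) in WT/PBS and 9473, 15121 and 22812 CPM in DTR/PBS. DTR/PBS libraries 1 and 6 lay above WT/PBS library 4, and the other 4 lay below all of WT/PBS. Its log2 fold change was -1.63 (SE 0.39, adjusted p = 0.00146), 3.11 times lower. For mt-Rnr1 the values were 3916, 10315 and 18401 CPM in WT/PBS against 2329, 3212 and 5944 CPM in DTR/PBS, with a log2 fold change of -1.54 (SE 0.40, adjusted p = 0.00286). The reads of mt-Rnr2 per read of mt-Rnr1 were 4.51 ± 0.636 (SD, n = 6) in WT/PBS and 4.39 ± 0.589 in DTR/PBS, a log2 difference of -0.04 (SE 0.12).

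Complex I, which passes electrons from NADH to ubiquinone, takes 7 of its subunits from mitochondrial DNA. mt-Nd1 (MT 2751 to 3707) was at 6764, 16704 and 30139 CPM in WT/PBS and 5219, 6162 and 7613 CPM in DTR/PBS. Apart from WT/PBS library 4, each WT/PBS library lay at 13425 CPM or more and above all DTR/PBS libraries. The log2 fold change was -1.47 (SE 0.34, adjusted p = 0.00111), or 2.78 times lower. mt-Nd2 (MT 3914 to 4951) went from a median of 8891 to 3491 CPM, mt-Nd4 (MT 10167 to 11544) from 11429 to 6172, mt-Nd5 (MT 11742 to 13565) from 10176 to 4065 and mt-Nd6 (MT 13552 to 14070) from 2708 to 910. Their log2 fold changes were -1.40 (SE 0.40), -0.98 (SE 0.32), -1.34 (SE 0.36) and -1.63 (SE 0.48). mt-Nd4 had the smallest of the mRNA changes. mt-Nd6 is the mRNA gene on the minus strand of the reference, and its counts fell with those of the plus strand genes. Since these libraries do not mark strand, reads at mt-Nd6 cannot be assigned to RNA of the minus strand. mt-Nd3 (MT 9459 to 9806), one of the genes copied in the nucleus, was counted at 8.63, 29.8 and 44.0 CPM in WT/PBS and at 6.21, 7.2 and 8.41 CPM in DTR/PBS, with no overlap and a log2 fold change of -1.94 (SE 0.45, adjusted p = 0.00111).

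Cytochrome b, the subunit of complex III that mitochondrial DNA encodes, is made from mt-Cytb (MT 14145 to 15288). It stood at 7019, 17554 and 39573 CPM in WT/PBS and 7957, 8995 and 10976 CPM in DTR/PBS, where all 6 libraries lay above WT/PBS library 4 and below the other 5. The log2 fold change was -1.09 (SE 0.36, adjusted p = 0.0164).

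Complex IV, cytochrome c oxidase, has its catalytic core from mt-Co1, mt-Co2 and mt-Co3. mt-Co1 (MT 5328 to 6872) had the most reads of the mRNA genes, 19.0% of all mitochondrial reads. It was at 12283, 28639 and 58246 CPM in WT/PBS and 8224, 10944 and 13038 CPM in DTR/PBS, so that DTR/PBS libraries 1 and 6 passed WT/PBS library 4 and none passed any other. The log2 fold change was -1.47 (SE 0.40, adjusted p = 0.00434). The counts of mt-Co2 (MT 7013 to 7696) were at 0.855 to 1.71 CPM in WT/PBS and 0 to 0.757 CPM in DTR/PBS. Libraries 2 and 4 of DTR/PBS had no mt-Co2 read, which allows up to 3 reads, or up to 1.33 CPM at the shallowest depth. mt-Co3 (MT 8607 to 9390) was at 0.570 to 6.59 CPM in WT/PBS and 0 to 1.22 CPM in DTR/PBS. Both were called lower, by -1.71 (SE 0.55) and -2.14 (SE 0.51), from counts that are uncertain for the reason given above.

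ATP synthase, complex V, takes mt-Atp6 and mt-Atp8. mt-Atp8 (MT 7766 to 7969) was at 231, 1322 and 3393 CPM in WT/PBS and 286, 481 and 1021 CPM in DTR/PBS. These ranges overlapped widely and the log2 fold change of -1.36 (SE 0.53, adjusted p = 0.0393) was the nearest to the threshold among the mRNA genes. mt-Atp6 (MT 7927 to 8607) was counted at 3.35, 15.5 and 35.0 CPM against 3.07, 5.06 and 8.29 CPM, with a log2 fold change of -1.67 (SE 0.51).

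The tRNA genes differed from each other. Of the 8 tested on the minus strand of the reference 7 were called lower (mt-Tq, mt-Ta, mt-Tn, mt-Tc, mt-Ty, mt-Ts1 and mt-Te), with mt-Tp not called, and of the 11 tested on the plus strand 1 was called lower, mt-Ti. The median log2 fold changes were -1.85 on the minus and -0.68 on the plus strand, but the minus strand genes also had more reads, 163919 on 8 genes against 72457 on 14. The difference between the strands was not tested. The strand here is that of the annotation, and because these libraries do not mark strand, reads on a tRNA gene can come from RNA of either strand. mt-Ts1, which follows mt-Co1 on the opposite strand, was at 58.0, 284 and 744 CPM in WT/PBS and 33, 79.3 and 216 CPM in DTR/PBS, a log2 fold change of -1.84 (SE 0.58, adjusted p = 0.0119). mt-Te was at 37.2, 224 and 339 CPM against 45.6, 64.3 and 123 CPM, where DTR/PBS lay above WT/PBS library 4 and below the other 5, with a log2 fold change of -1.58 (SE 0.44, adjusted p = 0.00551).

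mt-Tm, the initiator and elongator tRNA for methionine, showed another pattern. It was at 12.1, 114 and 282 CPM in WT/PBS and 20.5, 42.3 and 405 CPM in DTR/PBS, where libraries 1 and 2 had 405 and 188 CPM and the other 4 had 20.5 to 46.1. Its log2 fold change of -0.20 (SE 0.70, adjusted p = 0.842) has a wide error. DTR/PBS libraries 1 and 2 were also the highest of their group for mt-Tv (51.8 and 25.1 CPM, the others 3.88 to 5.61), for mt-Th (14.3 and 6.02 CPM, the others 0.443 to 2.54) and for mt-Tg (13.5 and 7.32 CPM, the others 1.33 to 3.78). The log2 fold changes of these 3 tRNA genes were -0.10 (SE 0.70), 0.02 (SE 0.65) and -0.57 (SE 0.59), and none was called. mt-Tl1, between mt-Rnr2 and mt-Nd1, was at 12.1, 33.7 and 85.4 CPM in WT/PBS and 13.8, 17.9 and 36.5 CPM in DTR/PBS, a log2 fold change of -0.94 (SE 0.46, adjusted p = 0.102). The remaining 6 tRNA genes not called (mt-Tw, mt-Td, mt-Tr, mt-Tl2, mt-Tt and mt-Tp) had mean levels of 0.432 to 2.68 CPM.

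**Figure D3:**
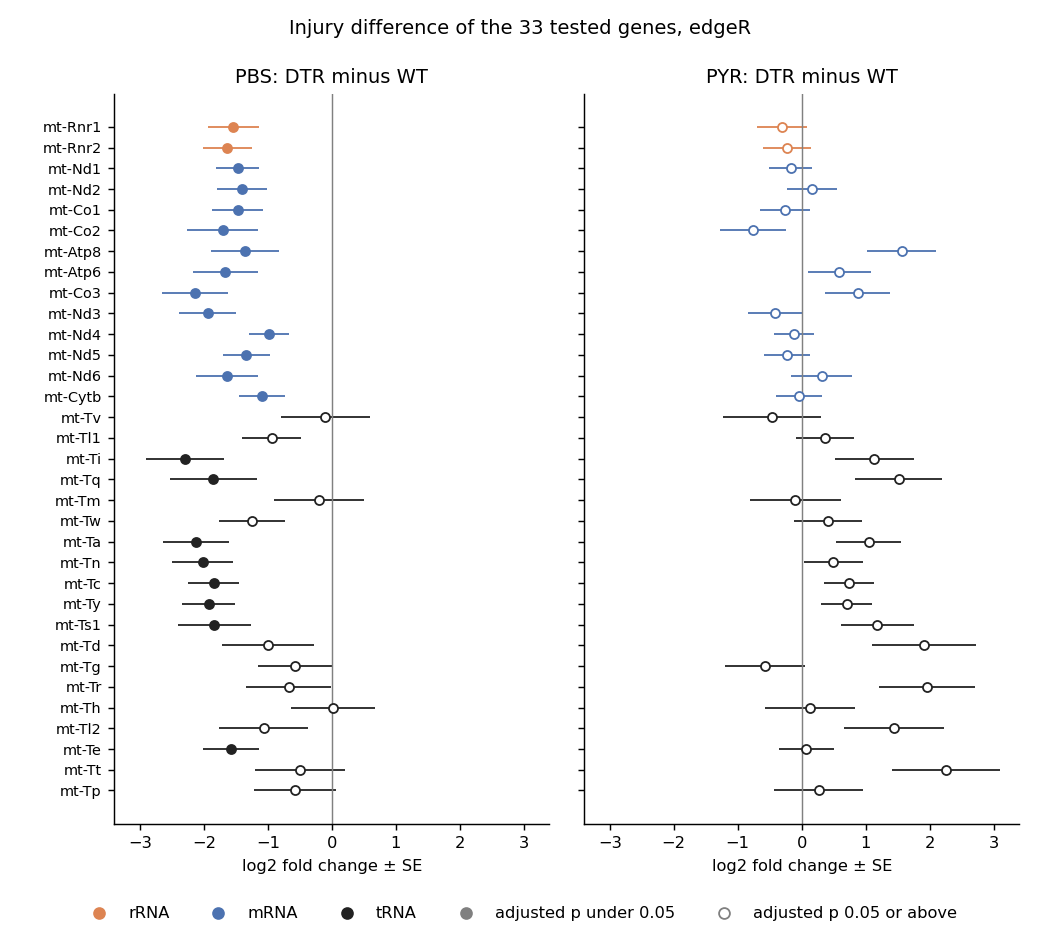
Points give the edgeR log2 fold change of DTR against WT with its SE for the 33 tested genes, under PBS (left) and PYR (right), coloured by RNA class, with filled points at an adjusted p under 0.05. Under PBS 22 points are filled, all below 0, and under PYR none is.

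Markers of cells and of injury moved in the same comparison. Of 14 cardiomyocyte markers 11 were called lower, and their summed share of reads was 9.99% to 12% in WT/PBS and 4.21% to 8.90% in DTR/PBS. All 15 macrophage markers were called higher (summed share 0.0283% to 0.0489% in WT/PBS and 0.0885% to 0.374% in DTR/PBS), as were 6 of 10 fibroblast markers (0.0758% to 0.117% and 0.294% to 0.880%). Of 10 endothelial markers 7 were called lower (0.118% to 0.187% and 0.109% to 0.151%) and of 5 red cell markers 4 (0.00505% to 0.0683% and 0.00194% to 0.0244%). None of these markers was at 0 in any library. DTR/PBS libraries 1 and 2, the high ones for mt-Tm, had the lowest cardiomyocyte shares, 4.21% and 4.73%, and the highest macrophage shares, 0.374% and 0.324%. The part of these shifts in the mitochondrial counts was not tested, and in bulk tissue fewer cells of a type and less RNA per cell cannot be told apart.

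Nuclear genes for subunits of the same complexes were lower as well. In DTR/PBS against WT/PBS, 33 of 37 such genes were called lower for complex I, 8 of 9 for complex III, 10 of 11 for complex IV and 11 of 14 for complex V, and none was called higher. The medians were -0.86, -0.81, -0.77 and -0.79 on the log2 scale, against -1.47 for the mitochondrial mRNA genes. Single pairs of genes were compared through ratios of reads within a library, which need no scaling between libraries. mt-Nd1 had 36.2 ± 9.52 reads per read of Ndufs1, which encodes an iron-sulphur subunit of complex I, in WT/PBS (SD, n = 6) and 41.7 ± 5.73 in DTR/PBS, a log2 difference of 0.24 (SE 0.18, exact permutation p = 0.229). For mt-Cytb over Uqcrc1, a core subunit of complex III, the log2 difference was 0.11 (SE 0.52), for mt-Co1 over Cox4i1 of complex IV -0.20 (SE 0.42) and for mt-Atp6 over Atp5b of complex V -0.22 (SE 0.63). None of these differences exceeded the spread between libraries, and the SEs above 0.4 leave room for changes of either sign. These 4 partners fell by more than the medians of their complexes, by 1.60 (Ndufs1, the lowest of its complex), 0.89 (Uqcrc1), 1.05 (Cox4i1) and 1.16 (Atp5b) on the log2 scale, so their ratios do not stand for the complexes as a whole. Summed over all members and all nuclear subunits listed, there were 1.26, 3.23 and 7.97 mitochondrial reads per nuclear subunit read (lowest, median, highest) in WT/PBS and 1.71, 2.14 and 5.83 in DTR/PBS. These ranges overlap, the median is lower in DTR/PBS, and no test was made on these sums.

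Some ratios between mitochondrial genes were tighter in DTR/PBS against WT/PBS, with SEs of 0.09 for mt-Cytb over mt-Nd1 and 0.12 for mt-Rnr2 over mt-Rnr1. Others were not, with log2 differences of -0.15 (SE 0.22) for mt-Rnr2 over mt-Nd1 and -0.17 (SE 0.23) for mt-Nd6 over mt-Nd5. mt-Cytb had 1.11 ± 0.128 reads per read of mt-Nd1 in WT/PBS (SD, n = 6) and 1.5 ± 0.160 in DTR/PBS. The highest WT/PBS library, at 1.31, passed the lowest DTR/PBS library, at 1.29, and the other libraries kept the groups apart. The log2 difference was 0.44 (SE 0.09, exact two-sided permutation p = 0.00433, adjusted p = 0.139 over 32 ratio tests). With 6 against 6 libraries and 32 tests, 1 ratio alone could at best reach an adjusted p of 0.0693. As a share of mitochondrial mRNA reads, mt-Cytb was 17.7% to 20% in WT/PBS and 20.5% to 24.6% in DTR/PBS, without overlap, while mt-Nd1 was 15.2% to 18.8% and 13.7% to 15.8%, with overlap. Of the 13 mRNA genes 1 other was without overlap in this share, mt-Nd3, at 0.0219% to 0.0457% in WT/PBS and 0.0159% to 0.0192% in DTR/PBS. In DTR/PYR against WT/PYR 1 gene was, mt-Atp8, at 0.442% to 0.797% in WT/PYR and 1.01% to 3.47% in DTR/PYR. No gene was in either comparison of the drug with PBS. mt-Cytb and mt-Nd1 both lie on the plus strand, mt-Nd1 near its start and mt-Cytb near its end.

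Nuclear genes that act on mitochondrial DNA and RNA were counted in lists, and their counts of calls are to be read against the 42.9% of all genes called in either direction in this comparison. None of 9 tested genes of mitochondrial transcription was called in DTR/PBS against WT/PBS by edgeR, DESeq2 or limma (1 had an unadjusted p under 0.05 in edgeR, Tfam), and the median log2 fold change was -0.19 against 0.01 for all genes. Tfam, the packaging and transcription factor, was at 20.8 ± 5.73 CPM in WT/PBS (SD, n = 6) and 14.8 ± 2.61 in DTR/PBS (adjusted p = 0.0909), and Polrmt, the RNA polymerase, at 64.8 ± 11.2 and 72.3 ± 27.1 CPM (adjusted p = 0.573). Of 12 genes of replication and repair 1 was called higher, Dna2, a nuclease and helicase, by 2.01 (SE 0.41), and 2 lower, Polg, the DNA polymerase, by -0.74 (SE 0.15) and Twnk, the helicase, by -0.40 (SE 0.15), all as log2 fold changes.

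Lists for handling of the transcripts held shares of called genes near or below that of all genes. Of 14 tested genes for cleavage and end processing 3 were called higher and 4 lower. Pde12, which removes A tails, rose from 10.4 ± 0.983 to 28.1 ± 5.08 CPM (SD, n = 6), a log2 fold change of 1.43 (SE 0.19, adjusted p = 1.9e-05), while Fastkd1 and Hsd17b10, a subunit of the nuclease that cuts the 5′ ends of tRNAs, fell by 0.94 (SE 0.25) and by 0.58 (SE 0.17) on the log2 scale. Of 8 genes for RNA stability and decay 2 were called lower: Lrpprc, which holds mitochondrial mRNAs stable, went from 179 ± 42.8 to 79.3 ± 14.7 CPM (log2 fold change -1.17, SE 0.23) and Grsf1, of the RNA granules, from 143 ± 32.1 to 75.1 ± 10.7 CPM (-0.93, SE 0.18). Of 18 RNA modification genes 3 were called higher and 2 lower, the smallest p-values being those of Trit1, a tRNA isopentenyltransferase (1.06, SE 0.21), Trmt5, a tRNA methyltransferase (-1.19, SE 0.28), and Mrm1, an rRNA methyltransferase (-0.62, SE 0.21).

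Among 11 translation factors 4 were called lower, including the elongation factors Gfm1 (-0.83, SE 0.17) and Tsfm (-0.67, SE 0.20) and the release factor Mtrf1 (-0.97, SE 0.25). Of 12 regulators of mitochondrial biogenesis 2 were called higher and 4 lower. The PGC-1 relative Pprc1 rose from 29.3 ± 2.44 to 87.1 ± 27.3 CPM (1.57, SE 0.25), the fatty acid receptor Ppara fell from 53.2 ± 8.10 to 16.8 ± 6.77 CPM (-1.67, SE 0.28), and the orphan receptor Esrra fell from 198 ± 30.8 to 102 ± 37.1 CPM (-0.97, SE 0.20). Ppargc1a itself, which encodes PGC-1α, was at 83.6 ± 21.8 CPM in WT/PBS and 65.0 ± 36.6 CPM in DTR/PBS and was not called (adjusted p = 0.394).

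Under pyridostigmine the injury comparison gave no call. Comparing DTR/PYR with WT/PYR, 0 of 33 members passed, against 12.2% of all genes (4.17% lower, 8.06% higher), and 6 had an unadjusted p under 0.05, against 29.5% of all genes. DESeq2 called 1 of 33, mt-Atp8, higher, against 10.9% of all genes called higher and 6.23% lower. limma called none, against 5.09% of all genes in either direction. No member was without overlap in either direction, against 3.18% of all genes lower and 2.19% higher. The median log2 fold change was 0.31 over the members. mt-Co1 was at 18006, 22657 and 33223 CPM in WT/PYR and 6270, 14678 and 39647 CPM in DTR/PYR, where libraries 1, 2 and 3 lay at 6270 to 8562 CPM, below all of WT/PYR, and libraries 4, 5 and 6 at 20794 to 39647 CPM. mt-Nd1 was at 4351 to 7335 CPM in the first 3 and 14674 to 21237 CPM in the others, against 11231 to 16957 CPM in WT/PYR. Libraries 4, 5 and 6 lay above libraries 1, 2 and 3 for 24 of the 33 tested members, both rRNA genes, 10 of 12 mRNA genes and 12 of 19 tRNA genes. Of all genes 21.8% lay above in this way and 18.3% below. mt-Tm was one of those that did not follow, at 41.7 to 61.8 CPM in the first 3 and 26.1 to 76.0 CPM in the others. mt-Tl2, among the 24, had 0 reads in libraries 1, 2 and 3, which allows up to 1.17 CPM. That is above its 0.641 CPM in library 6, so the mt-Tl2 separation is not resolved.

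Without DTR/PYR libraries 4, 5 and 6, the same comparison called 9 members lower: mt-Rnr1, mt-Rnr2, mt-Nd1, mt-Nd2, mt-Co1, mt-Nd4, mt-Nd5, mt-Nd6 and mt-Cytb. In that fit 15.4% of all genes were called lower and 17.5% higher. The log2 fold change of mt-Co1 was then -1.57 (adjusted p = 0.00275) in place of -0.26 (adjusted p = 0.699), and that of mt-Nd1 -1.18 (adjusted p = 0.00798) in place of -0.17 (adjusted p = 0.765). These 3 libraries also had the lowest Nppb of the group, and cardiomyocyte shares of 9.31% to 10.9% against 5.79% to 9.59% in the first 3. Their macrophage shares were 0.0448% to 0.0481% against 0.109% to 0.360%, with 0.0276% to 0.0483% in WT/PYR. Their fibroblast shares were 0.126% to 0.152% against 0.304% to 0.876%, with 0.0739% to 0.121% in WT/PYR. Endothelial and red cell shares overlapped with those of the first 3. Whether the hearts of libraries 4, 5 and 6 were injured to the same degree is not given by the labels and was not tested. Libraries 4, 5 and 6 of DTR/PYR all have tag letter V. Within U the log2 fold change of mt-Co1 in DTR/PYR against WT/PYR was -1.69 (adjusted p = 0.0104, 2 against 4 libraries), and within V it was 0.26 (adjusted p = 0.974, 4 against 2). Members were called, all lower, for 3 of 29 within U, against 29.7% of all genes in either direction and 14.2% lower, and for 0 of 30 within V, against 0% of all genes.

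Pde12 (0.88, SE 0.20), Trit1 (0.72, SE 0.22) and Pprc1 (1.01, SE 0.25) were called higher in DTR/PYR against WT/PYR. Each was the 1 called gene of its list (14, 18 and 12 tested), and the transcription, replication, stability and translation lists had none. Of all genes 8.06% were called higher, 4.17% lower and 12.2% either way here, so these lists held shares of calls near or below that of all genes. Among the markers all 15 of macrophages and 6 of 10 of fibroblasts were called higher, and 4 of 10 endothelial, 1 of 14 cardiomyocyte and 0 of 5 red cell markers lower. Their part in the mitochondrial counts was not tested.

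Pyridostigmine given to injured mice was compared with PBS in injured mice. Of the 33 members none was called, as for all genes (0%), and 17 had an unadjusted p under 0.05, against 19.4% of all genes. DESeq2 called none of the 29 to which it gave an adjusted p, and 1.71% of all genes. limma called none of 33, and 11.4% of all genes. All 12 tested mRNA genes had a log2 fold change above 0 (0.76 to 1.43), as had both rRNA genes (0.45 and 0.38), and the split of DTR/PYR described above carries through. Without libraries 4, 5 and 6 the log2 fold change of mt-Nd1 was -0.04 in place of 0.96 and that of mt-Co1 -0.50 in place of 0.81. Markers moved in value here too: all 14 cardiomyocyte markers were above 0 (median 0.48, 6 with an unadjusted p under 0.05), and all 15 macrophage markers were below 0 (median -0.64, 5 with an unadjusted p under 0.05). Of 10 fibroblast markers 9 were below 0 (median -0.59), of 10 endothelial markers 9 were above 0 (median 0.21), and all 5 red cell markers were below 0 (median -0.66). The cardiomyocyte share was 4.21% to 8.90% in DTR/PBS and 5.79% to 10.9% in DTR/PYR, and the macrophage share 0.0885% to 0.374% and 0.0448% to 0.360%. The DTR/PYR macrophage share was 0.109% to 0.360% in libraries 1, 2 and 3, inside the DTR/PBS range. In libraries 4, 5 and 6 it was 0.0448% to 0.0481%, below that range. The cardiomyocyte share was 5.79% to 9.59% in libraries 1, 2 and 3 and 9.31% to 10.9% in libraries 4, 5 and 6. None of these markers was called, and their part in the mitochondrial counts was not tested.

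mt-Co3 counts had every DTR/PYR library above every DTR/PBS library (1.28 to 3.34 against 0 to 1.22 CPM), against 0.162% of all genes higher and 0.214% lower without overlap. These were 5 to 119 reads per library in DTR/PYR and 0 to 57 in DTR/PBS. The 0 of DTR/PBS library 4 allows up to 1.33 CPM, above the lowest DTR/PYR value, so the separation is not resolved. The counts are also uncertain as levels of mt-Co3 because of its nuclear copy. Without DTR/PYR library 2, which had the lowest mitochondrial share, 8 members were called higher, against 7.63% of all genes called higher and 7.97% lower in that fit. Within tag letter V 6 of 30 members were called higher, against 4.28% of all genes called either way (1.19% higher, 3.08% lower). Both fits kept DTR/PYR libraries 4, 5 and 6. Without those libraries no member was called, nor any of all genes, and the median log2 fold change of the members was -0.55 in place of 0.82.

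In uninjured mice the drug comparison was also without a call, and all genes stood at 0% here too. The log2 fold change was below 0 for 32 of 33 members, with a median of -1.17 against -0.01 for all genes, and 16 had an unadjusted p under 0.05, against 3.11% of all genes. DESeq2 called 1 lower, mt-Tc, the 1 gene it called of all, and limma called none of any kind. All 5 red cell markers were below 0 as well (median -1.54, all 5 with an unadjusted p under 0.05), with a summed share of 0.00505% to 0.0683% in WT/PBS and 0.00333% to 0.0346% in WT/PYR. The medians of the cardiomyocyte, macrophage, fibroblast and endothelial markers were 0.04, -0.13, -0.11 and 0.08, with no unadjusted p under 0.05. The part of the red cell markers in the mitochondrial counts was not tested. No member was without overlap (all genes, 0.188% lower and 0.0906% higher). The tRNA genes lay lowest (median -1.46) and the mRNA genes nearest to 0 (median -0.46). mt-Ts1 was at 38.7, 58.9 and 91.6 CPM in WT/PYR against 58.0, 284 and 744 CPM in WT/PBS, where 5 of 6 WT/PBS libraries lay above all of WT/PYR (log2 fold change -2.51, SE 0.59, adjusted p = 0.998). mt-Co1 was at -0.40 (SE 0.39) and mt-Nd1 at -0.34 (SE 0.33), within the spread of the WT/PBS libraries. The test of whether the injury effect differed between PBS and PYR, the interaction, called none of 33 members and 0% of all genes, and 25 members had an unadjusted p under 0.05, against 7.96% of all genes. DESeq2 called 4 of them higher (mt-Ta, mt-Tc, mt-Ty and mt-Co3), of 7 genes it called higher in all, and limma called none of any kind. For mt-Nd1 it was 1.30 (SE 0.47, adjusted p = 0.569).

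**Figure D4:**
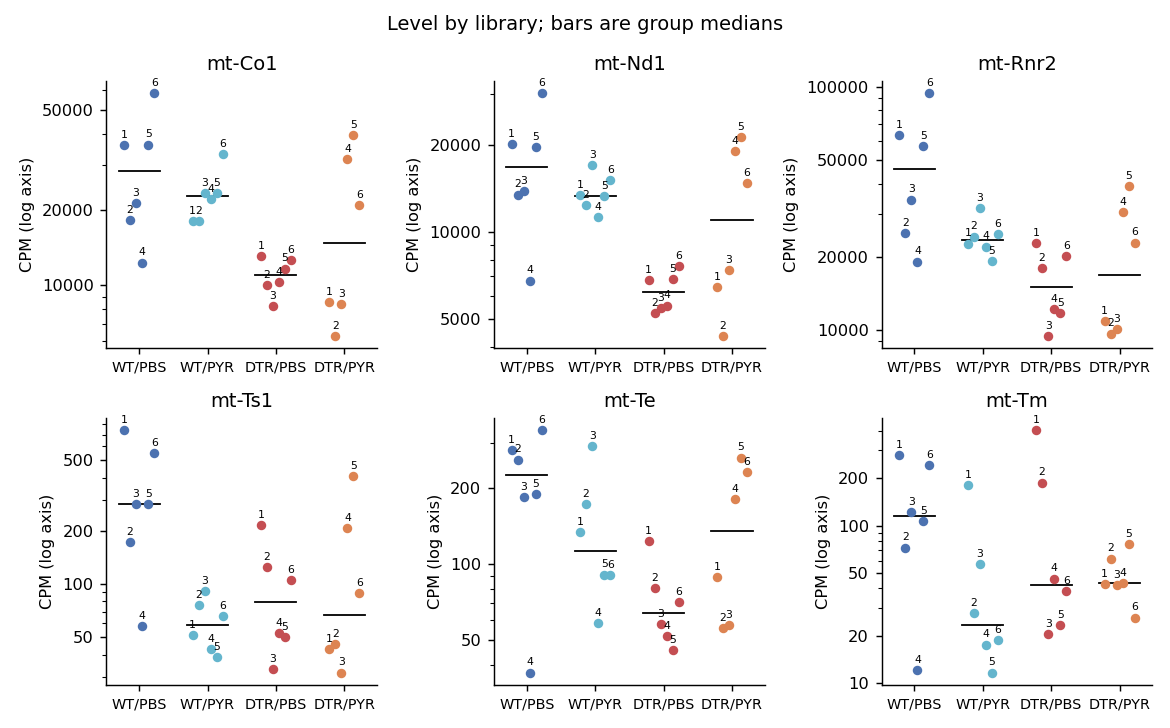
Points give the level of 6 genes in CPM on a log axis in each library, numbered by replicate, with the group median as a bar. DTR/PBS and DTR/PYR libraries 1, 2 and 3 lie low for mt-Co1, mt-Nd1 and mt-Rnr2, while mt-Tm is highest in DTR/PBS library 1 at 405 CPM.

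The balance of rRNA to mRNA reads differed with the drug in value, though not past the adjusted threshold. The libraries were of polyadenylated RNA, so this is a balance of the RNA captured and not a measure of all rRNA and mRNA in the tissue. mt-Rnr2 had 2.73 ± 0.485 reads per read of mt-Nd1 in WT/PBS (SD, n = 6) and 1.76 ± 0.204 in WT/PYR, where only WT/PBS library 2, at 1.87, fell within the WT/PYR range. The log2 difference was -0.62 (SE 0.14, exact permutation p = 0.00866, adjusted p = 0.139). In injured mice the ratio was 2.52 ± 0.768 with PBS and 1.72 ± 0.293 with PYR, a log2 difference of -0.52 (SE 0.21, exact permutation p = 0.0325, adjusted p = 0.260). DTR/PYR libraries 4, 5 and 6, at 1.56 to 1.84, lay among libraries 1, 2 and 3, at 1.37 to 2.23, so the split of that group by level was not seen in this ratio. For injury itself the ratio gave log2 differences of -0.15 (SE 0.22) under PBS and -0.05 (SE 0.12) under PYR. The ratio of mt-Cytb to mt-Nd1 was 1.28 ± 0.0689 in DTR/PYR against 1.5 ± 0.160 in DTR/PBS, a log2 difference of -0.22 (SE 0.07, exact permutation p = 0.0152, adjusted p = 0.162). None of the 32 ratio tests passed after adjustment, and 4 of them had an unadjusted p under 0.05.

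**Figure D5:**
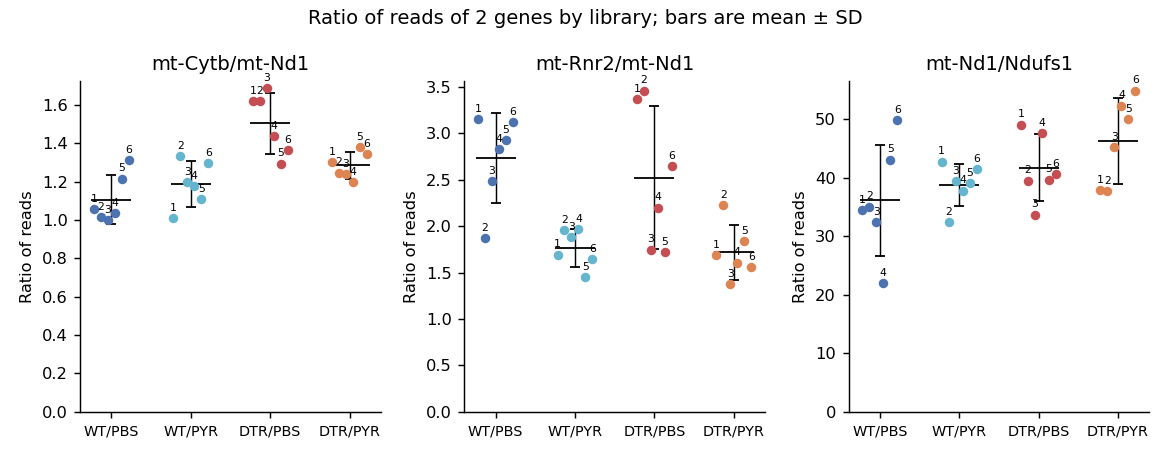
Points give the ratio of reads of 2 genes in each library, numbered by replicate, with mean and SD of each group as bars. For mt-Cytb over mt-Nd1 the DTR/PBS libraries lie at 1.29 to 1.69 and WT/PBS at 0.997 to 1.31, and for mt-Rnr2 over mt-Nd1 both PYR groups lie at 2.23 or below.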

How the data were processed

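Polyadenylated RNA of 24 mouse hearts was sequenced. Gene counts, whole numbers per Ensembl gene, were deposited by the authors as a filtered and an unfiltered table, and the unfiltered one was used. Per the submitters' processing notes, tools named are TopHat2 2.1.1, Bowtie2, HTSeq, DESeq and edgeR, and the build is GRCm38; the sources used here give neither their settings nor the handling of reads matching 2 places. The filtered table holds 15140 genes, 31 of them members, with the same counts. A deposited table of depth-normalised values was not used.

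Libraries were grouped by their titles, 6 per group. edgeR 4.0.16 (R 4.3.3) quasi-likelihood tests with TMM scaling were fitted to all 24 libraries with 1 coefficient per group, over genes above 0.5 CPM in at least 6 libraries, and p-values were adjusted (Benjamini-Hochberg) over all 15456 genes. CPM values use the TMM-scaled totals, and CPM per kilobase the gene length. log2 fold changes are edgeR's, and a fitted change of a gene with reads near 0 depends on the prior count. The SE of an edgeR log2 fold change was derived as its absolute value divided by the square root of the quasi-likelihood F statistic. The test was checked on simulated counts. Ratios of 2 genes were tested by exact two-sided permutation of log2 ratios with 0.5 added to each count (924 arrangements; smallest p 0.00216), adjusted over 32 tests. Sums over members were not tested.

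Nuclear copies were found with blastn 2.17.0 among GENCODE vM21 transcripts (at least 90% identity over 100 bases) and as identical 50-base windows on either strand. All 37 loci matched that annotation. Of 211 genes in 16 lists, 210 matched; Prorp did not. The members and lists were chosen with earlier results of these data known. Values per library are given for the rRNA and mRNA genes and the 4 tRNA genes with the most reads, and of each list on mitochondrial RNA and DNA the 3 called genes with the smallest p in each injury comparison are named, with Nppb and the partner genes Ndufs1, Uqcrc1, Cox4i1 and Atp5b. Tfam, Polrmt and Ppargc1a, and mt-Tv, mt-Th and mt-Tg, were named after their values were seen. Alternatives tried were DESeq2 1.42.0, its size factors, total-count scaling, scaling from nuclear genes alone, no filter, a filter in 13 libraries, limma 3.58.1 (voom), fits of 2 groups alone, tag letters and tag series, leaving out DTR/PYR libraries 4, 5 and 6, and leaving out each library.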

Additional observations from a re-analysis of the deposited data

Results flagged for a closer look

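In groups of 6 libraries, 9 values stood far from the others: the gap to the nearest library was a larger part of the group's range than Dixon's critical value allows. In all 128 groups were searched, and chance flags about 1 in 20 groups. No explanation was tested for any of them.

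In DTR/PBS, library 1 had 6.34% of its reads on mitochondrial mRNA genes, against 4.09% to 4.92% in the others, and 36.5 CPM of mt-Tl1, against 13.8 to 22.2. This library was also the highest of its group for mt-Tm, at 405 CPM, and had the most counted reads of its group, 36318026.

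In WT/PBS, library 2 had 30.8% of its mitochondrial reads on rRNA genes, against 36.1% to 38.2% in the others.

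The other flagged values lay in WT/PYR. Library 3 had 11114 CPM of mt-Rnr1 (others 3965 to 6644), 13.6 CPM of mt-Atp6 (others 6.12 to 8.69) and 0.00255 reads of mt-Atp6 per read of Atp5b (others 0.00113 to 0.00143). Library 6 had 33223 CPM of mt-Co1 (others 18006 to 23335). Library 1 had 180 CPM of mt-Tm (others 11.7 to 56.7) and 0.388 reads of mt-Nd6 per read of mt-Nd5 (others 0.143 to 0.211).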

How the results depend on the processing

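In the injury comparison under PBS, 22 members were called lower; the count was 18 to 23 under the other scalings, filters and tools, 21 within tag letter V, and 18 to 24 when 1 library was left out. Within tag letter U it was 4. The 22 genes kept their direction in all 24 alternatives; 4 of them (mt-Nd1, mt-Nd3, mt-Rnr1 and mt-Rnr2) stayed past the threshold in each, while mt-Atp8 missed it in 11. With total-count scaling the median of all genes shifted by 0.38 on the log2 scale here, the calls over all genes went from 3293 higher and 3341 lower to 5705 and 1756, and 18 members were called lower.

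Under pyridostigmine 0 members were called; the count was 1 higher with DESeq2 and with total-count scaling (mt-Atp8 in both), 3 lower within tag letter U (14.2% of all genes), 9 lower (15.4% of all genes) without DTR/PYR libraries 4, 5 and 6, and 0 to 1 when 1 library was left out. mt-Nd2 turned from 0.16 to -1.08 without those 3 libraries, and mt-Nd6 from 0.31 to -1.37 without them and to -1.50 within U.

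For the drug in injured mice, 6 of 30 members were called higher within V, where 1.19% of all genes were called higher and 3.08% lower, and leaving out 1 library gave 0 to 8. Without DTR/PYR libraries 4, 5 and 6 no member was called there, nor any of all genes. For the drug in uninjured mice DESeq2 called 1 lower (mt-Tc), and for the interaction 4 higher (mt-Ta, mt-Tc, mt-Ty and mt-Co3); leaving out 1 library gave 0 for both. No ratio test passed in any alternative. The cause of these changes was not tested. No paired analysis was possible because the labels give no replicate numbers or shared animals across groups. Depth limits the genes with few reads: 3 reads correspond to 0.0644 to 1.33 CPM, depending on the library.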
